A study of Mus musculus with 12 samples.

Results

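Klf2, Klf4 and Klf5 are a set of Kruppel-like zinc-finger transcription factors, and the transcripts of these 3 genes were followed here by their symbol among 27776 genes of the transient table and 27590 genes of each stable-line table. All 3 were listed in every table and had enough reads to be tested in every comparison. The study sequenced polyadenylated RNA of mouse embryonic stem cells that expressed mDUX, a mouse double-homeobox transcription factor of the cleavage-stage embryo. All groups were grown with serum, leukemia inhibitory factor (LIF) and 2i, the inhibitors CHIR99021 (of GSK3) and PD0325901 (of MEK).

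The 12 libraries formed 6 groups of 2. In the transient set, cells in which a codon-altered mDux transgene without a tag was expressed for 24 h were set against transient controls, read as 50 bp single-end reads. The titles call those samples control while another label gives them the same mDuxCA transgene, so every transient difference rests on the titles. In the stable line, TRE::3xHA-mDux; MERVL::EGFP, a lentivirus with a doxycycline-inducible promoter carried the same transgene with a 3xHA-tag, and the reporter was green fluorescent protein (GFP) under the control of the endogenous retrovirus MERVL. These cells came from drug-selected single-cell clones kept under puromycin and G418, and the labels do not say how many clones were used. The unsorted groups were the line after 24 h of doxycycline (plusDox) and without it (NoDox), and the sorted groups were GFP-positive (GFPpos) and GFP-negative (GFPneg) cells after 24 h of doxycycline. All stable-line libraries were read as 125 bp paired-end reads. A group given doxycycline but lacking the transgene was not analysed here, and in the unsorted comparison the drug and mDUX cannot be told apart. The libraries of a group are called A and B, and all came from a strand-keeping poly(A) kit. The labels do not say whether A and B were separate cultures, and the p-values cover the spread between libraries, which may be technical.

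KLF factors bind GC-rich and CACCC-type elements through zinc fingers at the end of the protein, and family members recognise much the same sites. In mouse embryonic stem cells Klf2, Klf4 and Klf5 are known to back each other up in holding the naive pluripotent state. Klf4, one of the factors used to reprogram somatic cells, is known as a target of LIF and STAT3, Klf2 protein is known to be phosphorylated by ERK and then degraded, and Klf5 is known to be needed for the inner cell mass and the trophectoderm of the blastocyst.

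Klf2 (ENSMUSG00000055148) lies on chromosome 8 from 72319033 to 72321656 on the plus strand, Klf4 (ENSMUSG00000003032) on chromosome 4 from 55527143 to 55532466 on the minus strand, and Klf5 (ENSMUSG00000005148) on chromosome 14 from 99298691 to 99315036 on the plus strand (GENCODE annotation of GRCm38). In that annotation 0 other genes overlapped any of them. The promoter windows of Klf2 and Klf4 are shown because these genes were called in opposite directions after doxycycline. Both calls depended on the processing, as given further on, and both genes were lower in GFPpos than in GFPneg cells. Klf5 was not matched in the promoter table. Each window runs from 250 bases before to 50 bases after the transcription start (RefSeq, GRCm38.p6), chr8:72318812-72319111 on the plus strand for Klf2 and chr4:55532426-55532725 on the minus strand for Klf4. Capitals mark GC boxes, GGGCGG on either strand, and the MEF2 box.
Klf2: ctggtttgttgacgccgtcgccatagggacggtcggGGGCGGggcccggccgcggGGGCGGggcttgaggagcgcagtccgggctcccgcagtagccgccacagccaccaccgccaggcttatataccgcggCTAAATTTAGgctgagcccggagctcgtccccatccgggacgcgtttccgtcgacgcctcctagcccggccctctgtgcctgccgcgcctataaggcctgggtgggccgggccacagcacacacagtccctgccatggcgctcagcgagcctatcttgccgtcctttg
Klf4: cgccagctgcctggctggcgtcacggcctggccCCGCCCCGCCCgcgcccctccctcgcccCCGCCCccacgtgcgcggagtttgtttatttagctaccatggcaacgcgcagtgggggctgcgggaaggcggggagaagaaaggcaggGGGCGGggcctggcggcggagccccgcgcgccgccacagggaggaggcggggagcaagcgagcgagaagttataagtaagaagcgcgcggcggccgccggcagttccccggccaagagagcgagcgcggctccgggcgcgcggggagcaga

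Both strands were searched. The Klf2 window held 2 GC boxes and the Klf4 window 4, of which 2 overlap by 1 base, and 35.7% of all 32851 promoter windows held at least 1. The MEF2 box, read here by its name because its letters vary, was matched once in the Klf2 window as CTAAATTTAG, at -118 from the transcription start, and was not matched in the Klf4 window; 1.86% of all windows held it. CACCC was found once in the Klf2 window, on the minus strand, against 57.5% of all windows. The STAT motif TTCNNNGAA, the CArG box and TATAAA were found in neither window, and 8.30%, 1.63% and 13.6% of all windows held them. These are matches of letters and not evidence of binding.

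Counted reads per library ran from 17914954 to 21988401 in the transient set, from 14365741 to 18388836 in the unsorted set and from 31870748 to 53826590 in the sorted set. The codon-altered transgene itself was not measured here. Zscan4d, a marker of the 2-cell stage, was 12.1-fold higher with transient mDUX than in the control, 1726-fold higher with doxycycline than without it and 88.6-fold higher in GFPpos than in GFPneg cells. The summed level of 6 embryonic stem cell markers was 3346 to 3518 CPM in plusDox against 5866 to 5880 CPM in NoDox libraries, and 2502 CPM in GFPpos against 3891 to 3934 CPM in GFPneg libraries. Summed markers of fibroblasts (7 genes) came to 25.8 to 27.3 CPM in plusDox against 7.29 to 9.20 CPM in NoDox libraries, and 19.9 to 22.3 CPM in GFPpos against 5.60 to 6.10 CPM in GFPneg libraries. Primitive endoderm markers (6 genes) came to 11.3 to 11.5 CPM in plusDox against 4.66 to 4.83 CPM in NoDox libraries, and 9.11 to 10.1 CPM in GFPpos against 4.71 to 5.36 CPM in GFPneg libraries. Neuroectoderm markers (3 genes, mostly Nes) came to 145.0 to 145.7 CPM in plusDox against 73.5 to 78.4 CPM in NoDox libraries. They came to 47.1 to 48.2 CPM in GFPpos against 19.7 to 20.0 CPM in GFPneg libraries. Of these 3 genes, 2 were called higher and 1 lower in plusDox cells, and 1 higher and 1 lower in GFPpos cells. Of the fibroblast markers 3 had enough reads to test in the unsorted comparison, and only 1 was called, as higher. In the sorted comparison 4 were tested and 3 called, all higher. Of 5 primitive endoderm markers tested, 4 were called higher and 1 lower in plusDox cells, and 4 higher in GFPpos cells. The fibroblast markers Col3a1 and Dcn had 0 reads in all 4 sorted libraries. The part of these marker sets in the results was not tested. In bulk RNA fewer cells of a type and less RNA per cell cannot be told apart.

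Levels are given as CPM, read counts scaled to a fixed number of gene reads per library, after scaling by TMM, a factor that offsets differences in RNA composition, within the libraries of one comparison. A change is called where the p of edgeR's quasi-likelihood test, adjusted by the Benjamini-Hochberg method over all genes tested, is under 0.05. Fold changes are log2 values with their standard error (SE).

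**Figure D1:**
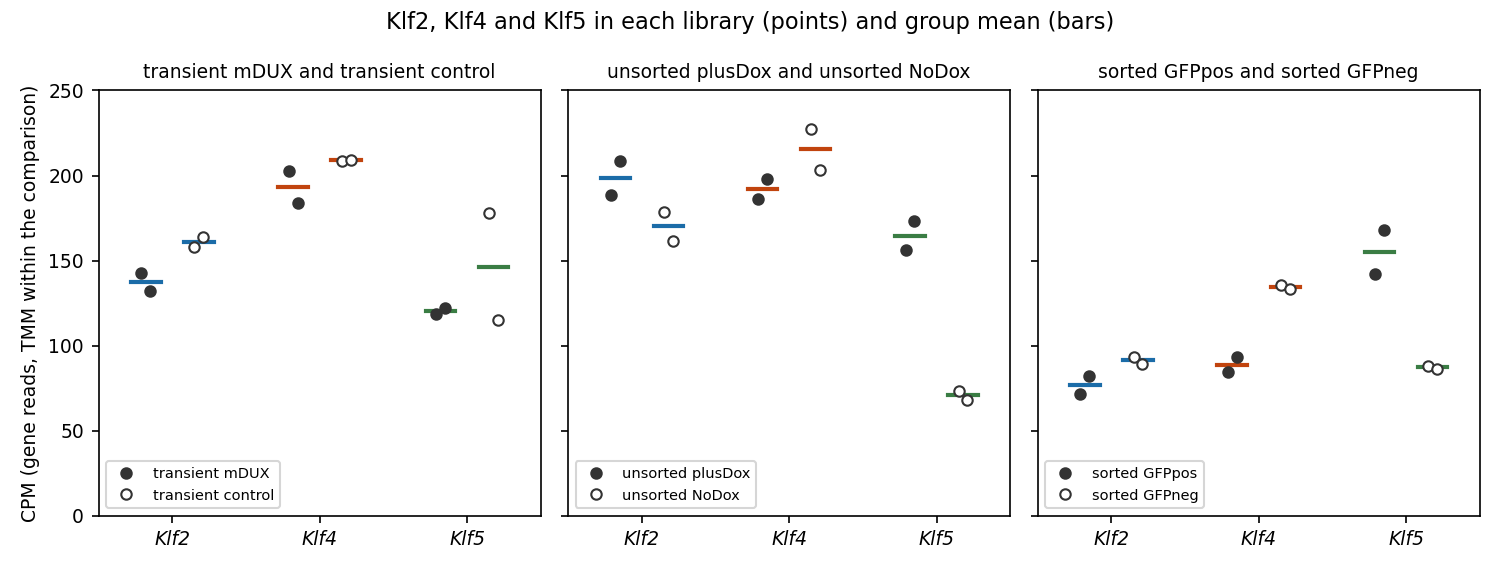
Each point is the CPM of Klf2, Klf4 or Klf5 in 1 library, with filled points for transient mDUX, unsorted plusDox and sorted GFPpos cells and open points for transient control, unsorted NoDox and sorted GFPneg cells; bars are means of 2 libraries. The Klf5 points of plusDox and GFPpos libraries lie far above their NoDox and GFPneg points, while in the transient panel the control libraries of Klf5 lie on either side of its mDUX libraries.

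Klf5 was the member that changed most with doxycycline in the unsorted cells. In the unsorted comparison, which asked what 24 h of doxycycline changed, Klf5 had 156 and 173 CPM in plusDox libraries, against 73.2 and 68.2 CPM in NoDox libraries. The groups did not overlap, with both plusDox values far above both NoDox values. Klf5 rose 2.33-fold (log2 fold change 1.22 ± 0.06, adjusted p = 7.26e-51). Of all genes tested, 65.2% passed this threshold, 34.0% higher and 31.1% lower, so passing alone does not set a gene apart in this comparison. By the size of its change Klf5 stood within the top 17.4% of genes here, within the top 32.2% between the sorted groups, and within the top 53.8% and 35.7% in the contrasts of GFPneg and GFPpos cells with NoDox cells given further on.

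Klf2 and Klf4 moved little and in opposite directions with doxycycline. Klf2 had 188 and 209 CPM in plusDox libraries, against 179 and 162 CPM in NoDox libraries. Its log2 fold change was 0.23 ± 0.06 (adjusted p = 0.000298), and the groups were separated by less than the spread within either of them. Klf4 had 186 and 198 CPM in plusDox libraries, against 228 and 204 CPM in NoDox libraries, again without overlap. It fell by 0.17 on the log2 scale (SE 0.06, adjusted p = 0.00756). Both changes were smaller in size than those of most genes: 72.0% of genes had a change at least as large as Klf2 and 78.9% as large as Klf4.

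The Klf2 call depended on the scaling and on a single library, and the Klf4 call on single libraries and the tool. With scaling to gene totals only, the median over all genes was -0.22, the log2 fold change of Klf2 was 0.00 (adjusted p = 0.967) and that of Klf4 was -0.39 (adjusted p = 2.42e-09). Without plusDox library B the Klf2 value was 0.15 (adjusted p = 0.0659), and in a fit of all 12 libraries it was 0.075 (adjusted p = 0.467). The Klf4 call was lost without NoDox library A (-0.086, adjusted p = 0.283), without plusDox library A (-0.12, adjusted p = 0.148) and with DESeq2 (-0.16, adjusted p = 0.0772). In the authors' deposited table, whose unsorted values run from NoDox over plusDox by the counts, Klf2 had a log2 value of -0.16 with an adjusted p of 0.0908, and Klf4 one of 0.23 with an adjusted p of 0.00971. The Klf5 change kept its call in all 12 alternatives, with log2 fold changes of 1.0 to 1.30.

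The sorted comparison asked how cells with an active MERVL reporter differed from cells without it after the same doxycycline. Klf5 was again higher, and Klf4 and Klf2 were lower. Klf5 had 142 and 168 CPM in GFPpos libraries, against 87.9 and 86.5 CPM in GFPneg libraries (log2 fold change 0.83 ± 0.07, adjusted p = 2.81e-07). The groups did not overlap, and GFPpos cells held 1.78-fold more. Klf4 had 84.3 and 93.3 CPM in GFPpos libraries, against 136 and 133 CPM in GFPneg libraries, and fell by 0.60 on the log2 scale (SE 0.06, adjusted p = 1.44e-06). Every GFPpos library was below every GFPneg library for Klf4.

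Klf2 changed least of the members between the sorted groups. It had 71.7 and 82.0 CPM in GFPpos libraries, against 93.5 and 89.4 CPM in GFPneg libraries, and fell by 0.25 on the log2 scale (SE 0.07, adjusted p = 0.00547). Without GFPneg library A its adjusted p was 0.0522. Here 66.3% of all genes passed the threshold, 34.3% higher and 32.0% lower. With scaling to gene totals only, which moved the all-gene median to -0.25, the log2 fold change was -0.50 for Klf2, -0.85 for Klf4 and 0.58 for Klf5, so that the change of Klf4 was then larger in size than that of Klf5. The calls of Klf4 and Klf5 held in all 12 alternatives.

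The direction of Klf2 thus differed between the stable-line comparisons, higher in plusDox than in NoDox cells and lower in GFPpos than in GFPneg cells, with the first call depending on the scaling. The GFP-negative cells, which had received doxycycline too, were compared with NoDox cells by fitting all 8 stable-line libraries together. Sorting and library set cannot be told apart from induction in that contrast. Zscan4d was 42.4-fold higher in GFPneg than in NoDox cells, at 83.1 against 1.94 CPM, so GFPneg cells were not like uninduced cells in this marker. The 2-cell-like marker Zfp352 was 18.5-fold higher, and the internal region of MERVL 3.62-fold. GFPpos cells held 6913 CPM of Zscan4d in the same fit. Low induction in many GFPneg cells and a few GFPpos cells carried over cannot be told apart in bulk RNA. Klf5 had 110 and 108 CPM in GFPneg libraries, against 60.3 and 56.3 CPM in NoDox libraries (log2 fold change 0.91 ± 0.07, adjusted p = 2.13e-12), without overlap. Klf2 had 117 and 112 CPM in GFPneg libraries, against 147 and 134 CPM in NoDox libraries, and fell by 0.29 (SE 0.06, adjusted p = 0.000187). Klf4 had 169.9 and 167 CPM in GFPneg libraries, against 188 and 168 CPM in NoDox libraries (log2 fold change -0.08 ± 0.06, adjusted p = 0.240). The Klf4 groups overlapped, and its value ranged from -0.67 to 0.042 over 15 alternatives, 8 of which called it lower. Here 77.8% of genes passed, with a median of 0.14. Scaling to gene totals only gave a median of -0.43 and log2 fold changes of 0.32 for Klf5, -0.67 for Klf4 and -0.88 for Klf2, so that Klf5 then changed least of the members. The calls of Klf5 and Klf2 held on that scale. The summed primed epiblast markers (4 genes, mostly Dnmt3b) were 263 to 266 CPM in GFPneg against 40.1 to 40.5 CPM in NoDox libraries. Of 3 tested, 2 were called higher and 1 lower. The summed neuroectoderm markers were 24.7 to 25.1 CPM in GFPneg against 60.6 to 64.7 CPM in NoDox libraries. Of these 3 genes 1 was called higher and 1 lower, with a median log2 fold change of 0.27, so not every marker followed the sum. Within the unsorted set, scaled on its own, primed epiblast markers came to 39.1 to 39.4 CPM in plusDox against 48.7 to 49.1 CPM in NoDox libraries. The summed neuroectoderm markers there were higher in plusDox than in NoDox libraries, with 2 of 3 called higher and 1 lower. Neither gap in the summed markers between GFPneg and NoDox cells was thus seen with doxycycline in the unsorted set. The part of these markers in the KLF values was not tested.

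In the same fit GFPpos cells lay further from NoDox cells than GFPneg cells did, for each of the 3 genes. Klf5 was 3.13-fold higher (log2 fold change 1.65 ± 0.07, adjusted p = 3.10e-18), with 168 and 197 CPM in GFPpos libraries. Klf4, with 99.7 and 109 CPM in GFPpos libraries, fell by 0.77 (SE 0.06, adjusted p = 2.34e-12), and Klf2, with 84.8 and 96.2 CPM, fell by 0.63 (SE 0.07, adjusted p = 1.28e-09). Neither overlapped with its NoDox libraries. In this contrast 82.0% of genes passed and the all-gene median was 0.15. The 3 calls held in all 15 alternatives. With gene totals only the log2 fold changes were 0.90 for Klf5, -1.51 for Klf4 and -1.38 for Klf2, around an all-gene median of -0.60, so Klf5 again changed least on that scale. Primed epiblast markers came to 205 to 207 CPM in GFPpos against 40.1 to 40.5 CPM in NoDox libraries, a gap not seen with doxycycline in the unsorted set. Of 3 tested, 2 were called higher and 1 lower. Fibroblast markers came to 23.5 to 26.1 CPM in GFPpos against 6.02 to 7.58 CPM in NoDox libraries, with 3 of 4 tested called higher and 1 lower. Primitive endoderm markers came to 10.8 to 11.9 CPM in GFPpos against 3.85 to 3.98 CPM in NoDox libraries, and the part of these markers was not tested. Both contrasts with NoDox cells use the same NoDox libraries.

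**Figure D2:**
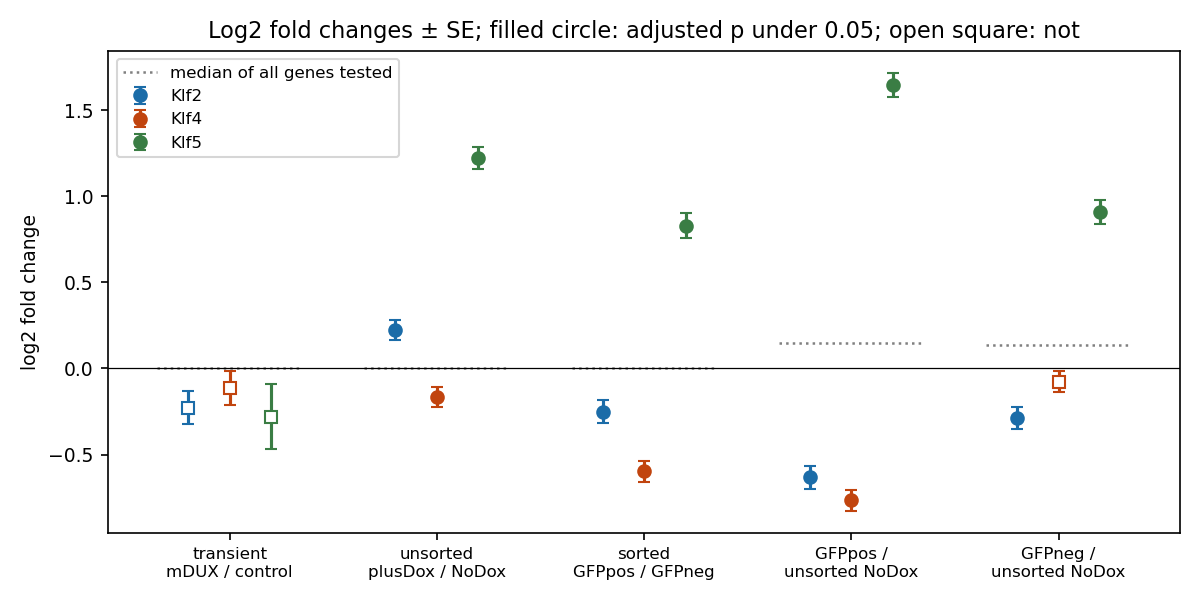
Log2 fold changes of Klf2, Klf4 and Klf5 with their SE in 5 comparisons named on the horizontal axis, the first named group over the second; filled circles passed the threshold, open squares did not, and dotted lines give the median of all genes tested. Klf5 lies at 0.83 or above in the 4 stable-line comparisons and at -0.28 in the transient one.

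In the transient comparison, which asked what 24 h of mDUX changed relative to the control, none of the members passed, where 2.14% of all genes did. Klf5 had 119 and 122 CPM in mDUX libraries, against 178 and 115 CPM in control libraries (log2 fold change -0.28 ± 0.19, adjusted p = 0.942). The control libraries lay on either side of the mDUX libraries. Without control A the log2 fold change of Klf5 was 0.067 (adjusted p = 0.833), and without control B it was -0.58 (adjusted p = 8.34e-11), the lone control being assumed to vary like the other group. Control A also carried 2.35% of its reads in ribosomal RNA repeats, against 0.0767% in control B, and its part in the Klf5 value was not tested.

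Klf2 was lower in both transient mDUX libraries, at 143 and 132 CPM, against 158 and 164 CPM in control libraries (log2 fold change -0.23 ± 0.10, unadjusted p = 0.0450, adjusted p = 0.745 by edgeR). It passed only without control A (adjusted p = 0.0449). Klf4 had 203 and 184 CPM in mDUX libraries, against 208 and 209 CPM in control libraries (log2 fold change -0.11 ± 0.10, adjusted p = 0.961). DESeq2 and limma-voom also called 0 of the 3 genes.

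Whether the members changed differently in the transient and the doxycycline setting was tested as an interaction in a fit of those 8 libraries. For Klf5 the transient minus the unsorted log2 fold change was -1.32 ± 0.25 (adjusted p = 0.00353), and it passed in all 15 alternatives, with values of -1.59 to -1.0. For Klf2 it was -0.27 ± 0.12 (adjusted p = 0.108) and for Klf4 0.24 ± 0.12 (adjusted p = 0.148). Klf2 passed in 4 of its 15 alternatives and Klf4 in 1. Of all genes 36.8% passed, with a median of 0.17. The settings also differ in how the transgene was delivered, in the tag, in read format and in the Zscan4d response, and the part of these in the difference was not tested.

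On one scale over all 12 libraries, fixed by TMM over the genes of all 3 tables, the order of the groups could be read for each gene. Klf5 was highest in GFPpos cells at 179 ± 20.5 CPM (mean ± SD, n = 2), then plusDox at 143 ± 10.5, transient control at 141 ± 42.5, transient mDUX at 115 ± 2.72, GFPneg at 105 ± 1.25 and NoDox at 67.9 ± 3.60 CPM. In this order transient control libraries overlapped with those of both plusDox and transient mDUX cells, and all other neighbours were apart. With gene totals only, the GFPpos mean was 143 ± 17.6 CPM, below plusDox at 155 ± 11.3 and transient control at 145 ± 39.6 CPM. On that scale GFPpos libraries overlapped with those of both other groups. From the lowest to the highest group Klf5 spanned 2.63-fold.

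Klf4 spanned 2.02-fold, and its highest and lowest groups were the lowest and highest of Klf5, while plusDox was above GFPneg in mean for both. It was highest in NoDox cells at 207 ± 17.0 CPM, followed by transient control at 201 ± 1.11, transient mDUX at 184 ± 12.1, plusDox at 166 ± 7.34 and GFPneg at 162 ± 1.94 CPM, and lowest in GFPpos cells at 102 ± 7.0 CPM. NoDox overlapped with transient control, and plusDox with GFPneg. Klf2 spanned 1.94-fold, with 172 ± 12.7 CPM in plusDox, 163 ± 11.8 in NoDox, 155 ± 4.35 in transient control, 131 ± 6.96 in transient mDUX, 110 ± 3.5 in GFPneg and 88.6 ± 8.10 CPM in GFPpos cells. For Klf2 the NoDox libraries overlapped with those of both plusDox and transient control cells, and all other neighbours were apart.

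The unsorted plusDox cells were not between the sorted fractions for every member. Klf5 in plusDox cells lay between GFPpos and GFPneg cells, Klf4 stood close to GFPneg cells, and Klf2 was higher than in either sorted group, with no library of either reaching the plusDox range. With gene totals only, the means of all members were higher in plusDox cells than in either sorted group. Klf5 then had 155 ± 11.3 CPM (mean ± SD) in plusDox and 143 ± 17.6 in GFPpos cells, with overlapping libraries, and 95.5 CPM in GFPneg cells. Klf4 had 181 CPM in plusDox, 82.0 in GFPpos and 147 CPM in GFPneg cells. Klf2 had 187 CPM in plusDox, 71.0 in GFPpos and 100.2 CPM in GFPneg cells on that scale. Sorting and library set cannot be told apart in this.

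Levels of different genes can be compared only per length. The exon length of Klf2 was 1847 bases and that of Klf4 3049 bases, both in the reference annotation and in the deposited tables, while Klf5 had 5201 bases of exons in the reference and 1721 in the deposited tables. By the reference length, Klf5 had a level of 34.3 CPM per kilobase in GFPpos cells, against 13.1 in NoDox cells. On the same scale Klf4 had 33.6 in GFPpos and 67.9 in NoDox cells, and Klf2 had 48.0 in GFPpos and 88.5 in NoDox cells. Klf5 was thus the lowest of the members in NoDox cells and close to Klf4 in GFPpos cells. By the longest transcript, 3352 bases for Klf5 and 3029 for Klf4, Klf5 had 53.3 CPM per kilobase in GFPpos cells, above Klf2 at 48.0 and Klf4 at 33.8, and 20.3 in NoDox cells, the lowest of the members there. The labels and headers do not say what the deposited length covers. By that length Klf5 had 103.8 CPM per kilobase in GFPpos cells, the highest of the members there, and 39.5 in NoDox cells, still the lowest. All members were in the upper part of the range of the 24482 genes with a reference length, a set not filtered by reads. Per kilobase of reference exon in NoDox cells, Klf2 was in the top 2.38% of that set, Klf4 in the top 3.14% and Klf5 in the top 16.4%.

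Ratios between members within a library do not depend on the scaling, and their difference between groups does not depend on length. The log2 ratio of Klf5 to Klf4, per base of reference exon, was -1.02 and -0.96 in plusDox libraries, against -2.41 and -2.35 in NoDox libraries, a difference of 1.39. In the sorted set it was -0.02 and 0.08 in GFPpos libraries, against -1.39 in both GFPneg libraries, a difference of 1.42. The balance of Klf5 over Klf4 was thus higher in each of these 4 libraries than in its comparators. The unsorted and sorted comparisons share no libraries.

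The ratio of Klf5 to Klf2 moved in the same direction. Its log2 difference was 1.0 for plusDox minus NoDox and 1.08 for GFPpos minus GFPneg cells, with no overlap in either. The ratio of Klf2 to Klf4 was higher by 0.39 in plusDox than in NoDox cells and by 0.35 in GFPpos than in GFPneg cells, also without overlap, so within libraries Klf5 gained most, Klf2 next and Klf4 least in both comparisons. In the transient set the Klf5 ratios overlapped between the groups. The log2 ratio of Klf2 to Klf4 there was 0.22 and 0.25 in mDUX libraries, against 0.32 and 0.37 in control libraries, a difference of -0.11 without overlap. An exact permutation test of 2 against 2 libraries cannot go below p = 0.33, so none was run on the ratios.

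**Figure D3:**
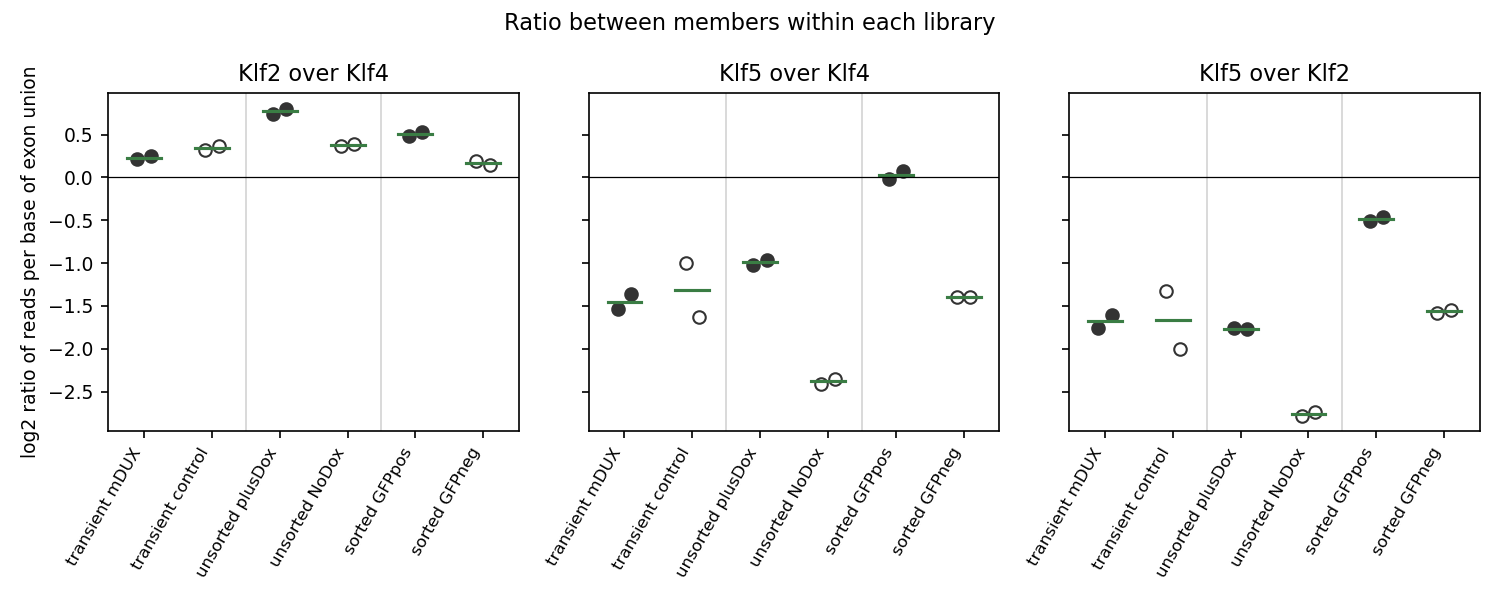
Log2 ratio of reads per base of reference exon between members in each library (points; filled for mDUX, plusDox and GFPpos, open for control, NoDox and GFPneg) with group means (lines). Both Klf5 ratios are higher in plusDox than NoDox and in GFPpos than GFPneg libraries, while the transient groups overlap.

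Other KLF and SP family members, whose zinc fingers recognise similar sites, moved in both directions in the stable line. Of the 23 other members, 20 were tested in the unsorted comparison, where 11 rose and 4 fell, against 34.0% and 31.1% of all genes; the median log2 fold change was 0.44, against 0.00 over all genes. With gene totals only, 9 rose and 7 fell. Klf17, known from the early mouse embryo, rose 6.53-fold but stayed low, at 2.25 CPM in plusDox against 0.348 CPM in NoDox cells. Klf14 passed as higher too, at 1.06 CPM in plusDox against 0.0625 CPM in NoDox cells, where it had too few reads for a fold to be given. Sp8, known from limb and brain patterning, rose 2.88-fold, at 1.09 CPM in plusDox against 0.375 CPM in NoDox cells. Klf13 fell by 1.2 on the log2 scale, with 45.3 CPM in plusDox against 105 CPM in NoDox cells.

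In the sorted comparison 10 of 20 tested members were higher in GFPpos cells and 7 lower, against 34.3% higher and 32.0% lower of all genes, with a median of 0.33 against 0.00 over all genes, and 6 were higher and 8 lower with gene totals only. Klf17 had 2.65 CPM in GFPpos against 0.0630 CPM in GFPneg cells (log2 fold change 5.33 ± 0.52). Sp6 was 3.13-fold higher at 0.569 CPM in GFPpos against 0.18 CPM in GFPneg cells. Klf12, a repressor, fell by 1.81 on the log2 scale, and Klf15, known as a metabolic regulator, fell by 1.57. Klf10, Klf9 and Klf3, named after their values were seen because they had the most CPM of the other KLF genes in these comparisons, were higher in both. Klf10, a TGF-beta-induced member, was 2.40-fold higher in GFPpos than GFPneg cells and 1.49-fold higher in plusDox than NoDox cells. Klf9 was 1.45-fold higher in GFPpos than GFPneg cells and 1.70-fold higher in plusDox than NoDox cells, and Klf3, known mainly as a repressor, was 1.92-fold and 1.33-fold higher in the same comparisons. In the transient comparison 0 of 19 other members passed by edgeR, DESeq2 or limma-voom, and 2 had an unadjusted p under 0.05 by edgeR.

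**Figure D4:**
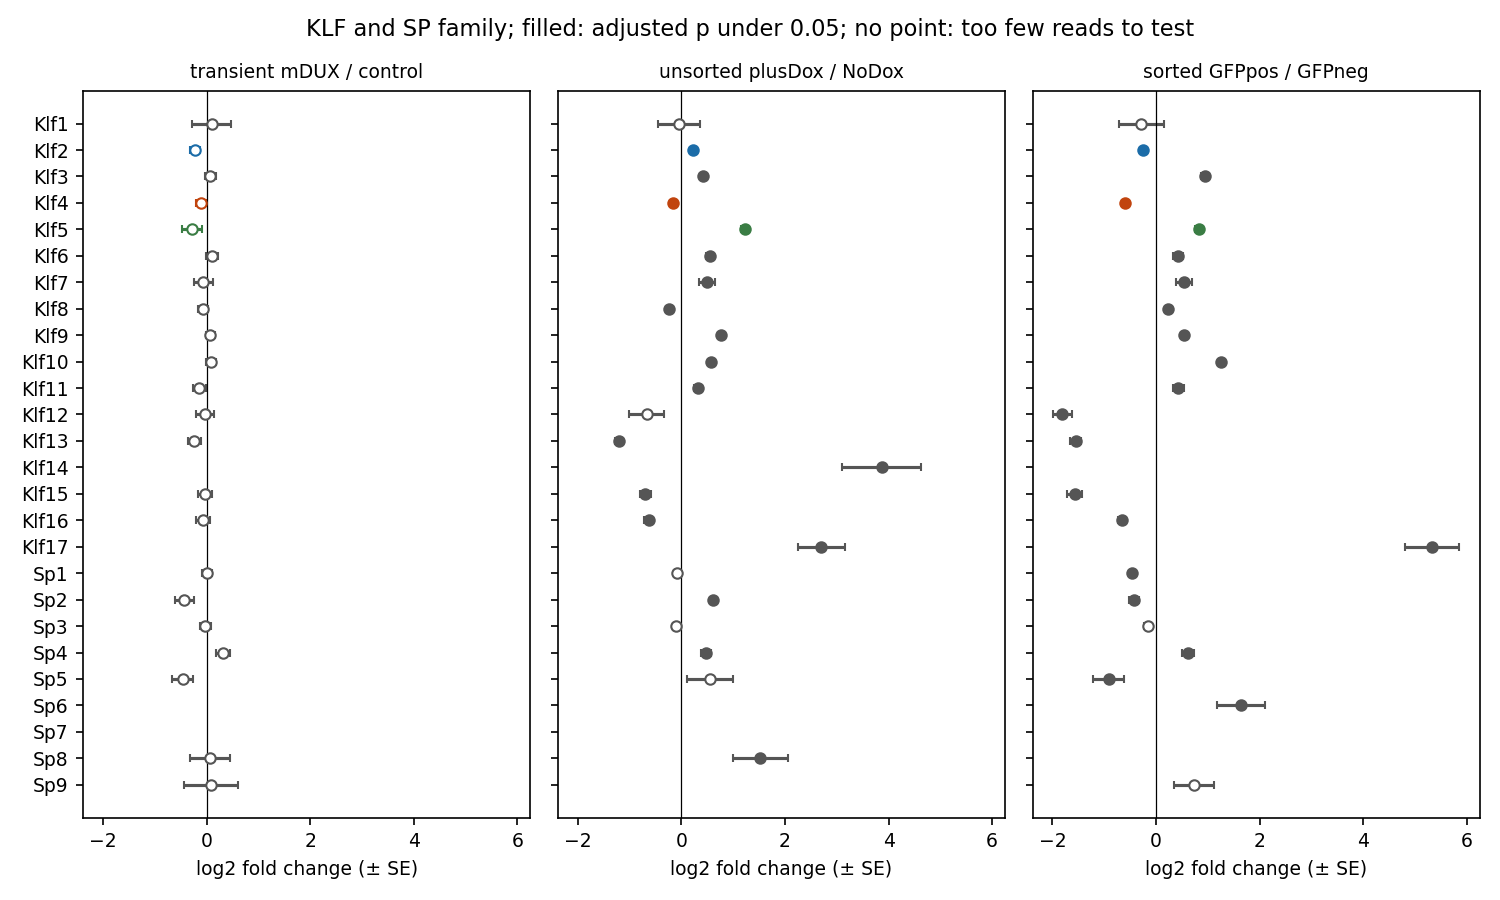
Log2 fold changes with SE of the KLF and SP family in the transient, unsorted and sorted comparisons (filled: adjusted p under 0.05). Klf5 lies on the side of most KLF members in both stable-line panels, Klf4 on that of Klf13, Klf15 and Klf16, and all transient points are open.

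Genes of the LIF receptor and STAT3 pathway, the signal known to sustain Klf4 transcription, were called about as often as other genes in the unsorted comparison. There 6 of 15 rose and 4 fell (median 0.09), or 4 and 6 with gene totals only, where 34.0% of all genes rose and 31.1% fell. Il6st, the shared signalling subunit of the LIF receptor, had 62.1 CPM in plusDox against 181 CPM in NoDox cells and fell by 1.55 on the log2 scale, and Lifr, the receptor itself, fell by 0.89. Jak1, the kinase bound to these receptors, rose 1.79-fold, and Socs1, a feedback inhibitor, rose 4.37-fold, with 4.78 CPM in plusDox against 1.10 CPM in NoDox cells. In the sorted comparison 6 were higher and 8 lower (median -0.17), or 2 and 8 with gene totals only, where 34.3% of all genes were higher and 32.0% lower. Il6st fell by 1.87 in GFPpos cells, Lifr fell by 0.75 and Stat3, the factor itself, fell by 0.83, at 86.2 CPM in GFPpos against 154 CPM in GFPneg cells, while Socs1 was 3.44-fold higher.

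Genes whose products are known to act on KLF factors, namely MEK and ERK kinases, MEF2 transcription factors and ubiquitin ligases, gave counts near those of all genes in the unsorted comparison. Of 13 tested in the unsorted comparison 5 rose and 3 fell (median 0.02), or 4 and 7 with gene totals only, against 34.0% and 31.1% of all genes. Of 14 in the sorted comparison 7 were higher and 5 lower (median 0.29), or 3 and 6 with gene totals only, against 34.3% and 32.0% of all genes. Mef2d, a member of the MEF2 factors that are known to drive Klf2 in endothelial cells, had the largest change of the list in both: 188 CPM in plusDox against 43.2 CPM in NoDox cells (log2 fold change 2.12 ± 0.07, adjusted p = 1.10e-57), and 113 CPM in GFPpos against 32.5 CPM in GFPneg cells (1.79 ± 0.07, adjusted p = 6.38e-11). Mef2a was 2.26-fold higher in GFPpos cells. Mapk3, the gene of ERK1, fell by 0.60 in plusDox and by 0.62 in GFPpos cells, Map2k5 fell by 0.75 in GFPpos cells, Map2k2 rose 1.79-fold and the ligase gene Btrc 1.43-fold in plusDox cells.

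Naive pluripotency factors, the network in which the members act, mostly fell: 11 of 15 with doxycycline, where 2 rose (median -0.70), and 13 of 15 in GFPpos cells, where 2 were higher (median -0.80). Of all genes 31.1% fell with doxycycline and 32.0% were lower in GFPpos cells. With gene totals only, 12 fell and 2 rose with doxycycline. In GFPpos cells 13 were lower and 1 higher with gene totals only, and also with DESeq2. Klf4 went the way of most of this list and Klf5 did not. The 2 that rose with doxycycline were Sall4, a zinc-finger factor, by 2.79-fold, and Gbx2, a homeobox gene, by 2.72-fold, while Fgf4 fell by 1.31 and Dppa5a fell by 0.97. In GFPpos cells Sall4 was 2.69-fold higher, Fgf4 fell by 1.56, Sox2 fell by 1.22 and Prdm14 fell by 1.17.

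Immediate early genes, which cells switch on quickly after a stimulus and among which some KLF genes are counted, rose in 15 of 18 cases with doxycycline and 1 fell (median 1.90), and 12 of 18 were higher and 3 lower in GFPpos cells (median 1.55). Of all genes 34.0% rose with doxycycline and 34.3% were higher in GFPpos cells. Fos had 29.4 CPM in plusDox against 1.19 CPM in NoDox cells and 14.3 CPM in GFPpos against 0.923 CPM in GFPneg cells. Jun, Egr1 and Atf3 rose 18.7-fold, 17.2-fold and 19.7-fold with doxycycline and were 13.6-fold, 35.3-fold and 12.9-fold higher in GFPpos cells. Fos, Jun, Egr1 and Atf3 were named for having the largest changes of the list. The changes of the 3 KLF genes were smaller in size than the list median in both comparisons.

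Among genes of the trophectoderm, a lineage for which Klf5 is known to be needed, 2 of 7 rose and 2 fell with doxycycline (median 0.12), and 3 of 9 were higher and 4 lower in GFPpos cells (median -0.10). The shares of all genes were 34.0% higher and 31.1% lower with doxycycline, and 34.3% higher and 32.0% lower in GFPpos cells. Ascl2 rose 8.0-fold and Gata2 3.24-fold with doxycycline, Tfap2c fell by 1.46 and Tead4 fell by 0.81. In GFPpos cells Krt18 was 3.46-fold higher, Tfap2c fell by 1.80, Tead4 fell by 1.22, and Cdx2 fell by 1.99, at 0.101 CPM in GFPpos against 0.412 CPM in GFPneg cells. In the transient comparison 0 genes passed by edgeR, DESeq2 or limma-voom among 15 pluripotency, 15 LIF and STAT3, 14 KLF-acting, 16 immediate early and 9 trophectoderm genes tested. At an unadjusted p under 0.05 edgeR had 2 of the immediate early genes and 0 of the others.

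The genes whose pattern lay closest to each member were named by the root mean square difference of log2(CPM + 0.5), centred within each library set, over 12 libraries and 11161 other genes with a mean of 5 CPM or more. Closest to Klf5 were Atf7ip (0.08), Nop14 (0.10) and Hsd17b12 (0.10), which rose by log2 fold changes of 1.10, 0.99 and 1.09 with doxycycline and were higher by 0.77, 0.94 and 0.68 in GFPpos cells. Closest to Klf4 were Mtif3 (0.05), Zmynd8 (0.06) and Apoe (0.06), with log2 fold changes of -0.70, -0.68 and -0.66 in the sorted comparison. With doxycycline these genes had -0.13, -0.28 and -0.26, and Mtif3 was not called (adjusted p = 0.248 by edgeR). Closest to Klf2 were Mex3d, Abl1 and Camsap1, each at 0.06. Mex3d was called in neither stable-line comparison, Abl1 in both and Camsap1 in the unsorted one only. Among the members themselves Klf2 and Klf4 differed by 0.15, Klf2 and Klf5 by 0.45, and Klf4 and Klf5 by 0.59. The nearest genes had the smallest of 11161 differences, so their values cannot be weighed against those between members.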

How the data were processed

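The authors deposited raw read counts per Ensembl gene and repeat family in 3 tables, one per library set, and beside them their own log2 fold changes, p-values and adjusted p-values, a mean signal per feature and a test-statistic score, per the file headers; the mean, the statistic and 12 rlog columns were not used. The submitters' processing notes list Novoalign 2.8, DESeq2 and mm10 without saying what each was used for. The counting program, its annotation and its strand setting were not given in the sources used here. Count columns were tied to groups, since their index starts at 0 and does not carry the replicate number.

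The counts were fitted with edgeR 4.0.16 (R 4.3.3; robust glmQLFit, then glmQLFTest) after filterByExpr with minimum count 10 and total 15, library sizes and TMM factors being taken from gene rows. SE is the size of the log2 fold change over the square root of F. DESeq2 1.42.0, limma 3.58.1, other scalings and filters, and leaving out libraries were alternatives. The fits were tested on simulated data with the same spread between libraries in each. That spread was smaller than the 11.9% estimated for the transient fit and the 8.96% for the transient minus unsorted fit. The simulation therefore does not show how well changes are found at the spread of those fits. Genes named were the members, up to 4 called genes of each list by size of change and the 3 nearest patterns of each member. Zscan4d, Zfp352 and the internal region of MERVL served as checks of the induction. Klf3, Klf9, Klf10 and the marker genes Nes, Dnmt3b, Col3a1 and Dcn were named after their values were seen. The members and lists were chosen with earlier results of these data known.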

Additional observations from a re-analysis of the deposited data

Results flagged for a closer look

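The change of Klf5 differed between the transient and the doxycycline setting by the test of the difference itself: the transient minus the unsorted log2 fold change was -1.32 (SE 0.25, adjusted p = 0.00353 by edgeR). Both plusDox libraries were above both NoDox libraries in Klf5, while the transient groups overlapped. The value was closest to 0 without transient control A, at -1.0, and furthest without transient control B, at -1.59.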

How the results depend on the processing

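Klf5 kept its direction and call in the unsorted and sorted comparisons, in both contrasts with NoDox cells and in the difference between the transient and unsorted effects, under every alternative run (12 for each of those 2 comparisons, 15 for the others). So did Klf4 in the sorted comparison and against NoDox in GFPpos cells, and Klf2 in both contrasts with NoDox cells. The transient call count, 320 genes, was 533 with no filter, 514 in the fit of 12 libraries and 247 to 2589 when 1 library was left out. Leaving out 1 library moved the transient log2 fold change of Klf2 between -0.29 and -0.17 and that of Klf5 between -0.58 and 0.067, with the sign turned without control A. In the unsorted comparison Klf4 was -0.16 with DESeq2 and -0.25 to -0.086 without 1 library, and Klf2 was 0.0031 with gene totals only, 0.075 in the fit of 12 libraries and 0.15 to 0.30 without 1 library. Klf2 in the sorted comparison was -0.36 to -0.15 without 1 library. Klf4 in GFPneg against NoDox cells was -0.67 with gene totals only, -0.28 with DESeq2, with its size factors and with repeat families in TMM, -0.13 with no filter, -0.16 with the CPM filter and -0.25 to 0.042 without 1 library, reversed without NoDox A. For the transient minus unsorted difference, Klf2 was -0.41 with DESeq2 (adjusted p = 0.0410) and with its size factors (adjusted p = 0.0208) and -0.37 to -0.21 without 1 library. It also passed without transient control A (-0.32, adjusted p = 0.00372) and without transient control B (-0.23, adjusted p = 0.0414). Klf4 was 0.14 to 0.30 without 1 library and passed without transient control B (0.25, adjusted p = 0.0265). The cause of these changes was not tested. The level of Klf5 relative to Klf2 and Klf4 depends on the length used: the log2 ratio of Klf5 to Klf4 in GFPpos cells was 0.03 by reference exons, 0.65 by the longest transcript and 1.63 by the deposited length, the last chosen after seeing the data. No paired analysis was possible because the count columns are indexed from 0 and do not carry the replicate numbers of the labels. Each member had 1122 or more reads in every library, and 2 libraries a group limit how small a difference can be called.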
